A study of Homo sapiens with 4 samples.

Results

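The genes described here encode the machinery that cuts and polyadenylates the 3′ end of messenger RNA, the factors that end transcription after the cut, and the Integrator complex. The members were 35 genes taken by name from a fixed list, and a value was read from each probe set that the platform annotation gives to that gene alone. Of the 35, 34 had such a probe set, out of 18417 genes with a value on the arrays. PABPN1, the nuclear poly(A)-binding protein, has no value because its single probe set is shared with the read-through gene BCL2L2-PABPN1. The list was drawn up with the ratios of atovaquone to vehicle in view, so those ratios are given as a description and nothing is supported by them.

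Human cells in culture were measured in 4 groups, each on 1 array. U266 received 15 µM atovaquone or its DMSO vehicle for 2 h. K562 received 20 µM atovaquone for 5 h, set against DMSO vehicle over the same 5 h. U266 is a multiple myeloma line and K562 a chronic myeloid leukaemia line, and atovaquone is an antimalarial drug that blocks complex III of the mitochondrial respiratory chain. No group was replicated, so nothing was tested, and a ratio here compares 2 single arrays. The drug dose, the time and the line all differ between the U266 and K562 comparisons and cannot be told apart.

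The 3′ end of most messenger RNAs is made by cleavage of the nascent transcript downstream of a hexamer signal, followed by addition of a poly(A) tail. The CPSF complex reads the hexamer and cuts, CSTF reads the GU-rich element beyond it, and the cleavage factors CFIm and CFIIm help to choose and activate the site. After the cut, the exonuclease XRN2 degrades the RNA still attached to RNA polymerase II, and a protein phosphatase held by PNUTS slows the polymerase, which ends transcription. Integrator is a separate machine that cuts small nuclear RNA precursors and the short transcripts of paused polymerases. PCF11, a CFIIm subunit that binds the tail of the polymerase, and PPP1R10, which encodes PNUTS, act where cleavage passes into termination.

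The sequences shown are the 250 bases before the transcription start of PCF11 and PPP1R10, the members with the lowest ratios, and of CLP1 and TOX4, a partner of each with smaller ratios. They come from RefSeq on GRCh38.p14, written 5′ to 3′ along the gene, and capitals mark the CCAAT box, which on the opposite strand reads ATTGG. PCF11 lies at chr11:83156881-83157130 on the plus strand, CLP1 at chr11:57657512-57657761 on the plus strand, PPP1R10 at chr6:30617244-30617493 on the minus strand and TOX4 at chr14:21476945-21477194 on the plus strand.
PCF11: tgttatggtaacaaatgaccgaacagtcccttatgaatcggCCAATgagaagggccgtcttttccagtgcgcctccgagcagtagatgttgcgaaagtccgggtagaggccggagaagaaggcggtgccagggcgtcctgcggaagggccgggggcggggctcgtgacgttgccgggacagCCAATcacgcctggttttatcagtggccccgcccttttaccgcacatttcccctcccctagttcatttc
CLP1: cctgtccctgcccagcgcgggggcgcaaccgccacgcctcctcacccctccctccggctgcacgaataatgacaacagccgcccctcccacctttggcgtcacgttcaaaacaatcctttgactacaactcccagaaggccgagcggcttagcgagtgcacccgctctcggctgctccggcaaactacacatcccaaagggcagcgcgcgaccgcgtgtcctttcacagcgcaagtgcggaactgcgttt
PPP1R10: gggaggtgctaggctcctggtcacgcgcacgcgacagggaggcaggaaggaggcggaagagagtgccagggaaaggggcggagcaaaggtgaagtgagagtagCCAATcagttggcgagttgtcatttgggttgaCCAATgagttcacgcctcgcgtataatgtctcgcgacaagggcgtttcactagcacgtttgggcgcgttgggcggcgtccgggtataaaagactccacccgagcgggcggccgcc
TOX4: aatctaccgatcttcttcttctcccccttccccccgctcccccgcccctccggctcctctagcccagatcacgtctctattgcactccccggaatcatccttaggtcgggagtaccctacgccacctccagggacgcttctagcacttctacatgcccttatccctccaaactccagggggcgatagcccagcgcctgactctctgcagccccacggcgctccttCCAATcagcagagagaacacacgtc

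The PCF11 window holds 2 CCAAT boxes, which begin 209 and 69 bases before the start, and the PPP1R10 window holds 2, at 147 and 115 bases. TOX4 holds 1, at 25 bases, and CLP1 holds 0. At least 2 CCAAT boxes on either strand occur in 9.53% of the 35116 windows of this length in the table, in 12.6% of those of genes measured in both lines, and in 6 of the 36 windows of the 30 members it lists. Besides PCF11 and PPP1R10, those 6 are windows of NUDT21 and INTS3, with 3 boxes each, and of CSTF1 and PABPN1, with 2 each. Log2 ratios of atovaquone to vehicle in U266 and K562 were 0.02 and −0.06 for NUDT21, −0.17 and −0.24 for INTS3, and −0.03 and −0.20 for CSTF1. PABPN1 has no value, and a link between boxes and ratios was not tested. PPP1R10 also holds the TATA letters TATAAA, 32 bases before the start, which on both strands occur in 10.7% of all windows, in 5.9% of those of genes measured in both lines and in 1 of the 36. The core of the cyclic AMP response element, TGACG or CGTCA, occurs once in PCF11 and once in CLP1 and in neither PPP1R10 nor TOX4, against 21.2% of all windows with at least 1, 29.4% of those of genes measured in both lines and 18 of the 36. The heat shock letters GAANNTTC, which read the same on both strands, occur in none of the 4 windows in 5.78% of all and in 3.96% of those of genes measured in both lines. GC boxes, GGGCGG or CCGCCC, occur in all 4, with 2 in PCF11, 3 in PPP1R10 and 1 each in CLP1 and TOX4, against 42.6% of all windows with at least 1, 65.6% of those of genes measured in both lines and 24 of the 36. None of these 5 motifs overlaps another in the printed windows. These are letter matches and not shown sites.

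PCF11 was lower with atovaquone in both lines, and more so in K562. Its intensity was 1418 with atovaquone and 2092 with vehicle in U266, and 660.0 with atovaquone and 1621 with vehicle in K562. The log2 ratio of atovaquone to vehicle, centred on the median of measured probe sets, was −0.55 in U266 and −1.29 in K562, or 1.47-fold and 2.45-fold lower. Counted from the lowest, PCF11 ranked 15 of 10731 genes measured in U266 and 4 of 10756 in K562. The RNA came from whole cultures, so a lower level in every cell and a loss from some of the cells cannot be told apart. One value stands for the whole gene, so full-length and shortened transcripts were not separated.

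PPP1R10 showed the same direction in both lines, with a wider gap between them. Its intensity was 3095 with atovaquone and 3999 with vehicle in U266, and 1094 with atovaquone and 3106 with vehicle in K562. The log2 ratio was −0.36 in U266 and −1.50 in K562, or 1.28-fold and 2.83-fold lower. It ranked 110 from the lowest in U266 and 2 from the lowest in K562. The annotation gives PPP1R10 3 probe sets with identical values on all 4 arrays, so they count as 1 measurement. The K562 ratio lay 1.14 below the U266 ratio for PPP1R10 and 0.74 below it for PCF11 on the log2 scale, differences that were not tested.

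The partners of both genes did not show ratios of that size. CLP1, the RNA kinase that forms CFIIm with PCF11, had intensities of 433.0 with atovaquone and 429.5 with vehicle in U266, and 460.2 with atovaquone and 527.0 with vehicle in K562. Its log2 ratios were 0.02 in U266 and −0.19 in K562. However, CLP1 lies close above the floor of the arrays, the intensity of 305.3 to 330.7 below which values were not used. In either line, a fall as large as that of PCF11 would have put CLP1 under the floor, without a ratio. Its ratios are therefore a weak comparison for PCF11. WDR82, which binds the phosphorylated polymerase tail in the PNUTS complex and also in SETD1 histone methyltransferases, stood at −0.05 and −0.24. Its intensity was 2743 with atovaquone and 2865 with vehicle in U266, and 1580 with atovaquone and 1875 with vehicle in K562. A dimmer WDR82 probe set gave log2 ratios of 0.04 in U266 and −0.25 in K562. TOX4, the HMG-box subunit of the PNUTS complex, had intensities of 2922 with atovaquone and 2885 with vehicle in U266, and 2042 with atovaquone and 1996 with vehicle in K562, with log2 ratios of 0.03 and 0.04. The catalytic PP1 subunits that PNUTS holds, PPP1CA, PPP1CB and PPP1CC, had log2 ratios between −0.07 and 0.14 in U266 and between 0.04 and 0.10 in K562. PCF11 and PPP1R10 had the lowest ratios of all members in both lines, so each was necessarily also the lowest of its own complex.

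**Figure D1:**
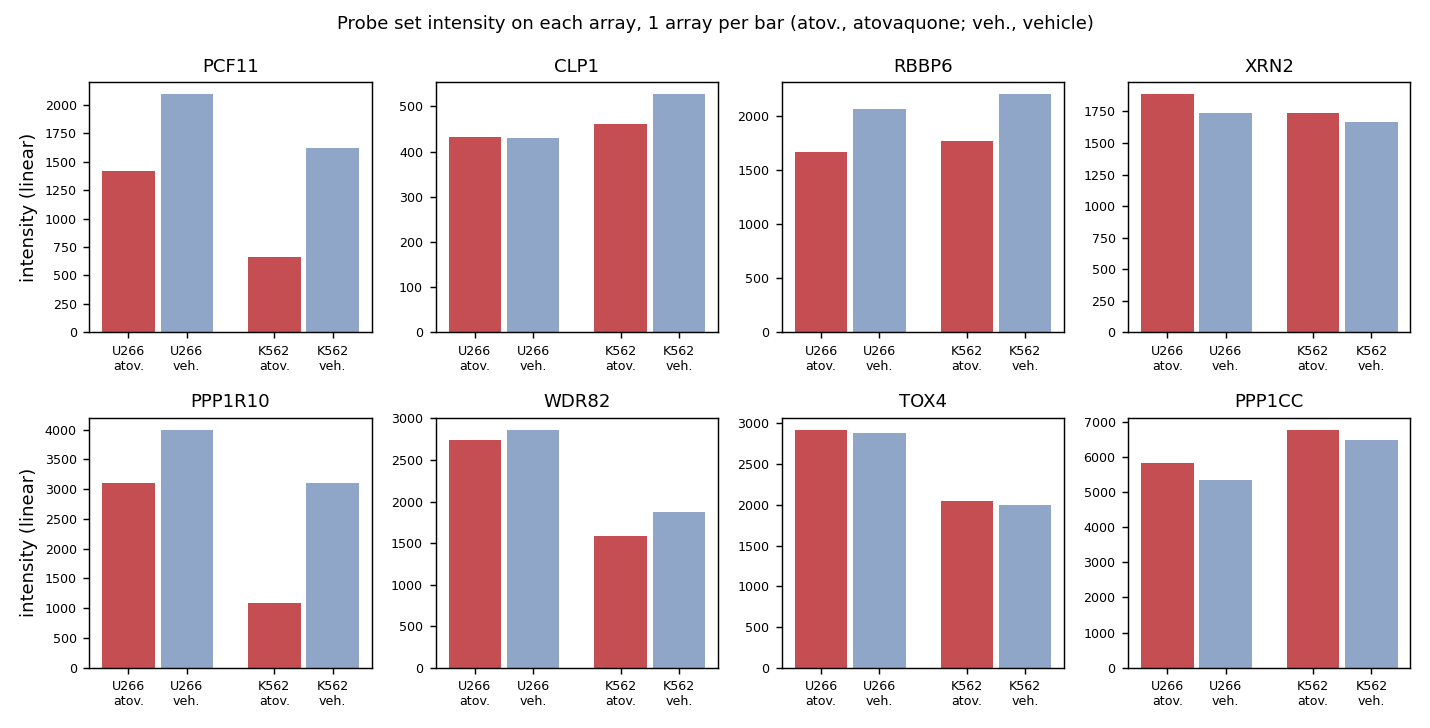
Probe set intensity on a linear scale that starts at 0, with 1 array per bar and a separate axis for each gene. The K562 atovaquone bar is the lowest of the 4 for PCF11 (660.0) and PPP1R10 (1094), as it is for WDR82 (1580), whose gap to K562 vehicle (1875) is smaller. XRN2, TOX4 and PPP1CC show no gap of the size seen for PCF11 and PPP1R10. Nor does CLP1, but it lies too close above the floor for a fall like that of PCF11 to be measured.

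Counted at 1.5-fold, 0 of the 34 members were higher and 0 lower with atovaquone in U266, where 0.857% of 10731 measured genes were higher and 0.0932% lower. PCF11 lay just outside at 1.47-fold lower. In K562, 0 of 34 were higher and 2 lower, PCF11 and PPP1R10, where 1.42% of 10756 measured genes were higher and 0.697% lower. The next lowest member in K562 was INTS2 at −0.40, or 1.32-fold lower. The median log2 ratio of the 34 members was −0.0091 in U266 and −0.0195 in K562, beside −0.0001 and −0.0057 over all measured genes. The members were chosen on these contrasts, and nothing is read from these counts.

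A limit of 1.2-fold, added after the values were seen, shows the smaller differences. In U266, 3 of 34 members were lower and 0 higher, beside 3.08% and 4.06% of all measured genes. The 3 were PCF11, PPP1R10 and RBBP6, and INTS1 lay just outside at −0.25. In K562, 7 of 34 were lower and 2 higher, beside 9.04% and 9.61% of all measured genes. Without PCF11 and PPP1R10 the lower count was 5 of 32. The 5 were INTS2, INTS9, RBBP6, INTS6 and CSTF2T, the higher pair was INTS7 and INTS4, and WDR82 and INTS3 lay just outside on the lower side, both at −0.24. The SD between probe sets of the same gene in these log2 ratios was 0.11 in U266 and 0.12 in K562. The 1.2-fold limit itself lies above that spread, so genes that pass it exceed the spread by construction. Nothing is read from this, and the SD leaves out any spread between cultures.

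**Figure D2:**
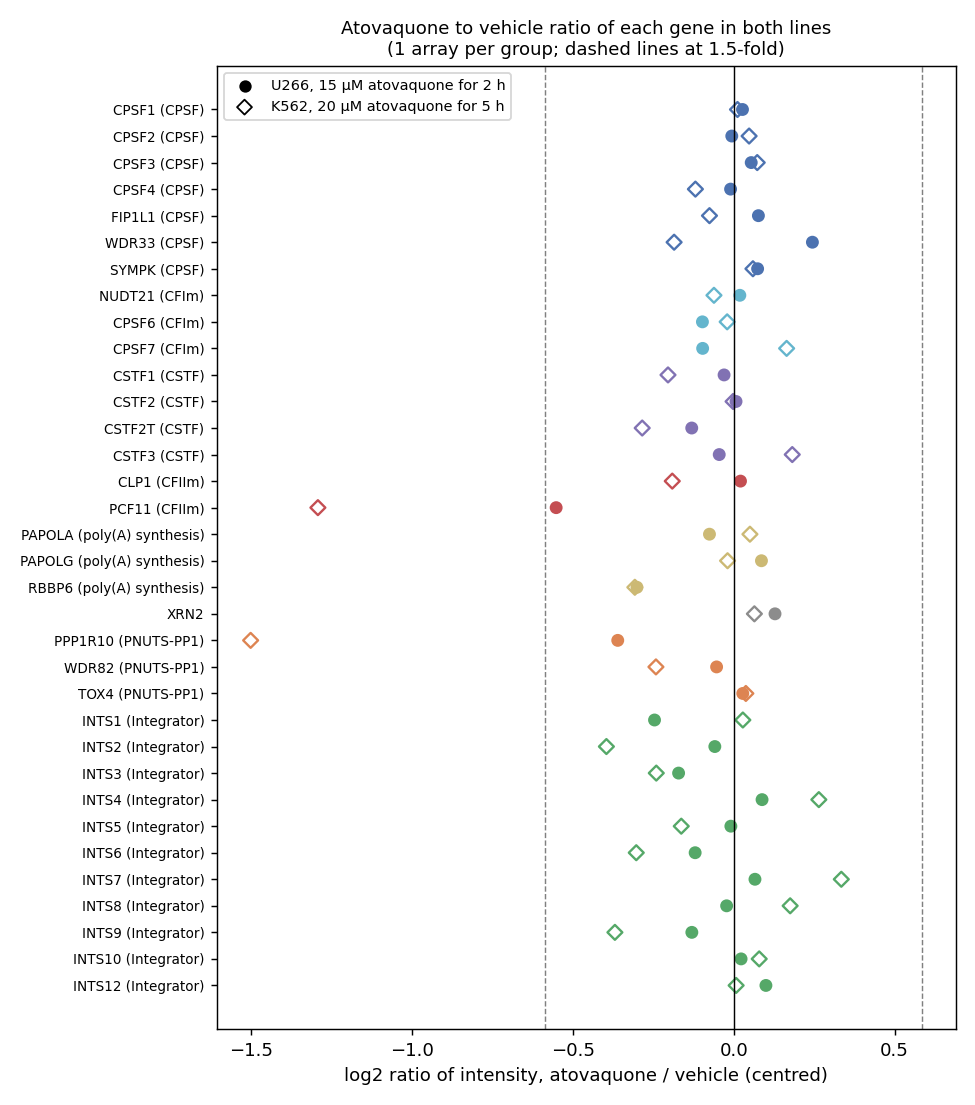
Log2 ratio of atovaquone to vehicle for the 34 genes, with filled circles for U266, open diamonds for K562, 1 array per group and dashed lines at 1.5-fold. PCF11 and PPP1R10 in K562 are the only points beyond a dashed line, and the other genes lie between −0.40 and 0.33 in both lines.

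RBBP6 was the remaining member at least 1.2-fold lower in both lines. It encodes a ubiquitin ligase related to yeast Mpe1 that activates cleavage. Its intensity was 1665 with atovaquone and 2064 with vehicle in U266, and 1773 with atovaquone and 2201 with vehicle in K562, with log2 ratios of −0.30 and −0.31. Of 9222 genes measured on all 4 arrays, 55 (0.596%) were at least 1.2-fold lower in both lines, PCF11, PPP1R10 and RBBP6 among them. At least that much higher in both were 0.759% of these genes and 0 members. The members were chosen with these ratios in view and the limit was added after they were seen, so these shares give no support. At the more extreme end, 3 genes had a U266 ratio at or below that of PPP1R10 and a K562 ratio at or below that of PCF11. The 3 were PCF11, PPP1R10 and the small nucleolar RNA gene SNORD50B, which was found after the values were seen. Both limits are ratios of the pair itself, so PCF11 and PPP1R10 fall inside by construction and nothing is read from this count.

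**Figure D3:**
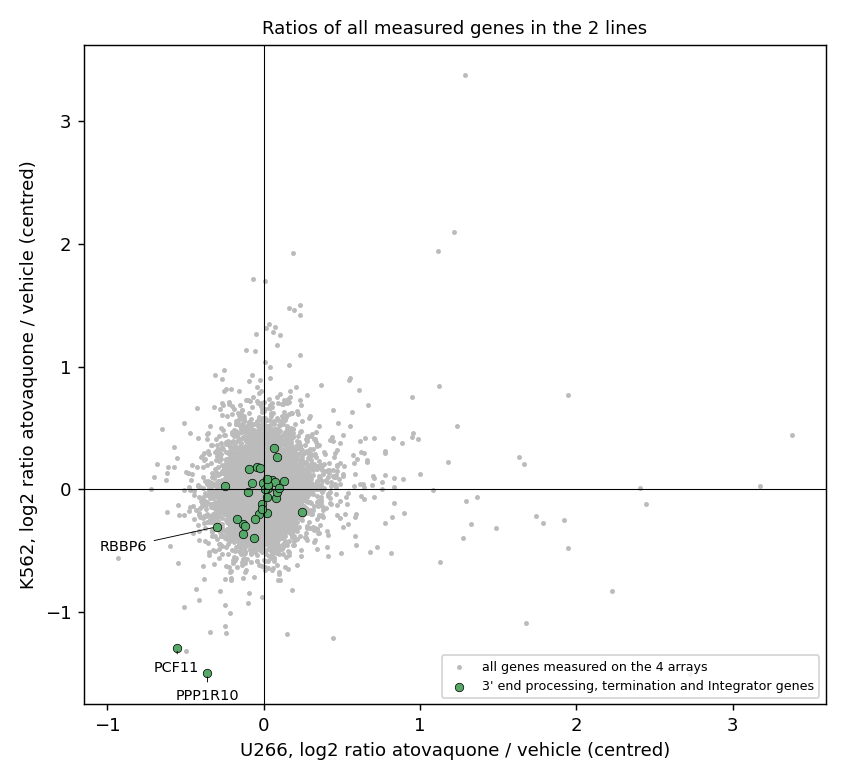
Log2 ratio of atovaquone to vehicle in U266 (horizontal) and K562 (vertical), with each grey point 1 of the 9222 genes measured on all 4 arrays and green points the 34 members. PCF11 (−0.55 and −1.29) and PPP1R10 (−0.36 and −1.50) lie at the lower left edge, RBBP6 (−0.30 and −0.31) lies at the edge of the main cloud on the same side, and the other members lie between −0.40 and 0.33 on both axes.

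None of the 7 CPSF subunits differed by 1.5-fold. Their log2 ratios ran from −0.01 to 0.24 in U266, with a median of 0.05, and from −0.18 to 0.07 in K562, with a median of 0.01. CPSF3, the endonuclease that makes the cut, stood at 0.05 in U266 and 0.07 in K562, and its inactive homologue CPSF2 at −0.01 and 0.05. CPSF4, a zinc finger protein that contacts the hexamer together with WDR33, stood at −0.01 and −0.12. CPSF1, the large scaffold of the complex, stood at 0.03 and 0.01, the scaffold SYMPK at 0.07 and 0.06, and FIP1L1, which brings in the poly(A) polymerase, at 0.08 and −0.08. WDR33 had the widest gap between the lines among the 7, with intensities of 3252 with atovaquone and 2763 with vehicle in U266, against 1756 with atovaquone and 2003 with vehicle in K562. Its log2 ratios were 0.24 and −0.18.

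The CFIm and CSTF subunits likewise showed no ratio of 1.5-fold. NUDT21, the CFIm subunit that binds UGUA in the RNA, had log2 ratios of 0.02 in U266 and −0.06 in K562. Its partners CPSF6 and CPSF7, alternative large subunits of CFIm, both stood at −0.10 in U266, and at −0.02 and 0.16 in K562. Among CSTF genes, the RNA-binding subunit CSTF2 stood at 0.01 and −0.0018, and its autosomal paralogue CSTF2T at −0.13 and −0.28. CSTF3, the scaffold of CSTF, stood at −0.04 and 0.18, and CSTF1 at −0.03 and −0.20. CSTF2 and CSTF2T have closely related sequences, and their values are uncertain to that extent.

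The enzymes around the cut had small ratios apart from RBBP6. PAPOLA, the main nuclear poly(A) polymerase, stood at −0.08 in U266 and 0.05 in K562, and its relative PAPOLG at 0.09 and −0.02. XRN2, the exonuclease that follows cleavage, had intensities of 1886 with atovaquone and 1736 with vehicle in U266, and 1736 with atovaquone and 1666 with vehicle in K562. Its log2 ratios were 0.13 and 0.06. Over the 18 measured cleavage and polyadenylation members other than PCF11, ratios ran from −0.30 to 0.24 in U266 and from −0.31 to 0.18 in K562.

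The Integrator subunits had medians close to 0 and spread more widely in K562 than in U266, as did all measured genes, whose log2 ratios had an SD of 0.23 in K562 and 0.18 in U266. The 11 log2 ratios ran from −0.25 to 0.10 in U266, with a median of −0.02, and from −0.40 to 0.33 in K562, with a median of 0.01. INTS2, a backbone subunit, was the lowest in K562, with intensities of 1006 with atovaquone and 1327 with vehicle in K562, and 1503 with atovaquone and 1576 with vehicle in U266. INTS7, also of the backbone, was the highest in K562, with 3246 with atovaquone and 2583 with vehicle there, and 1921 with atovaquone and 1847 with vehicle in U266. INTS1, the backbone scaffold, was the lowest in U266, with 733.4 with atovaquone and 875.4 with vehicle, and stood at 0.03 in K562. Subunits of the same backbone thus lay on both sides of 0.

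The Integrator cleavage module, in which INTS9 and INTS4 hold the endonuclease INTS11, also split. INTS9 had 2036 with atovaquone and 2638 with vehicle in K562, and 626.2 with atovaquone and 689.8 with vehicle in U266, with log2 ratios of −0.37 and −0.13. INTS4 stood at 0.26 in K562 and 0.09 in U266, and INTS11, which is no member and is named as their partner, at −0.05 and −0.13. INTS4 has near-identical pseudogenes, and its 2 probe sets shared with them, which were not used, gave 0.12 and 0.08 in K562. Of the subunits tied to the PP2A phosphatase, INTS6 had 780.1 with atovaquone and 965.3 with vehicle in K562 and a log2 ratio of −0.30, and INTS8 a log2 ratio of 0.18. In U266 these stood at −0.12 and −0.02. INTS3, which also belongs to the SOSS complex of DNA repair, stood at −0.24 in K562 and −0.17 in U266. Its second probe set lay below the floor on all 4 arrays, and the mean of both gave −0.14 in K562 and −0.29 in U266. INTS5 stood at −0.16 in K562 and −0.01 in U266, INTS10 at 0.08 and 0.02, and the PHD finger protein INTS12 at 0.01 and 0.10.

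Between the vehicle arrays, 2 of the 34 members differed by at least 2-fold, both lower in U266 than in K562, where 6.97% of 9483 measured genes were that much lower in U266 and 7.97% higher. INTS9 had intensities of 689.8 in U266 and 2638 in K562 with vehicle, 3.76-fold lower in U266. CPSF1 had 490.1 in U266 and 1732 in K562 with vehicle, 3.47-fold lower in U266. FIP1L1 lay just outside, with 1726 in U266 and 3274 in K562, or 1.86-fold lower in U266. INTS9 and CPSF1 kept this gap on the atovaquone arrays, where INTS9 had 626.2 in U266 and 2036 in K562 and CPSF1 had 496.2 in U266 and 1741 in K562. The vehicle exposure lasted 2 h in U266 and 5 h in K562, so line and time cannot be told apart here.

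The other members differed less between the lines without drug. All 3 PNUTS complex members were higher in U266, with log2 differences of 0.64 for WDR82, 0.56 for TOX4 and 0.39 for PPP1R10. PCF11 was also at 0.39, with intensities of 2092 in U266 and 1621 in K562 with vehicle. The PP1 subunits that PNUTS holds, which are not members, lay on both sides of 0. PPP1CB stood at 0.70, PPP1CC at −0.26 and PPP1CA at −0.68. The 3 CFIm genes lay between −0.09 and 0.17, and the poly(A) polymerase genes PAPOLA and PAPOLG at 0.07 and −0.06. Of the 11 Integrator genes, 7 were below 0 and 4 above, with a median of −0.45. Over all measured genes the median of this log2 difference was −0.0071, a value that the centring places near 0 by construction. No difference between the lines is read from the signs within a complex. On the vehicle arrays the SD between probe sets of the same gene was 0.39 in this log2 difference, a spread that several of these gaps do not exceed.

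**Figure D4:**
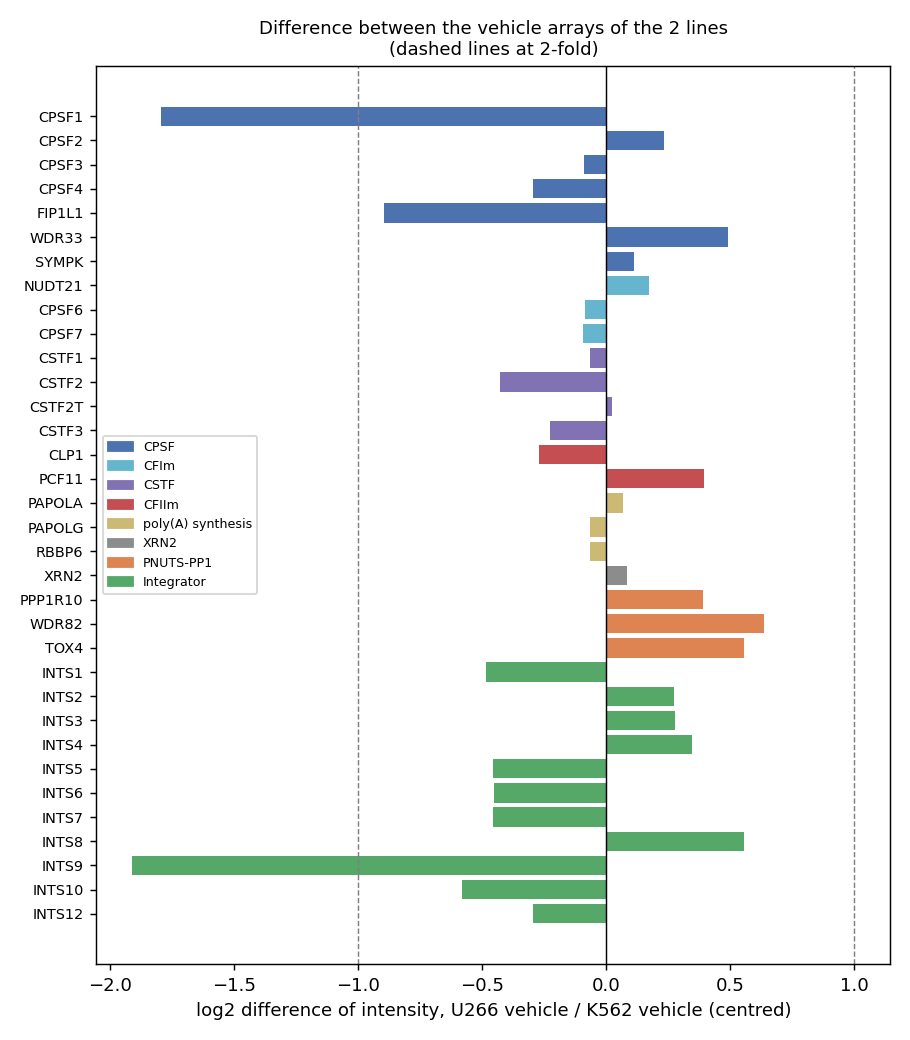
Log2 difference in intensity between the U266 and K562 vehicle arrays for the 34 genes, coloured by complex, with dashed lines at 2-fold. INTS9 and CPSF1 pass the dashed line on the K562 side. The 3 PNUTS complex genes plotted, which leave out the PP1 subunits, all lie on the U266 side.

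The wider pathway was read from 7 lists of other genes that work with these factors. Of the 65 such genes measured in U266, 2 were at least 1.5-fold higher and 0 lower with atovaquone, with a median of 0.02. Of the 68 measured in K562, 2 were higher and 1 lower, also with a median of 0.02. The background shares are those given above for 1.5-fold. Of the 58 protein-coding genes measured in K562, 0 passed 1.5-fold in either direction, and the lowest stood at −0.38.

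Among polymerase regulators in those lists, 18 pausing and elongation genes had medians of 0.02 in U266 and −0.03 in K562. CDK13, a kinase of the polymerase tail, had the lowest ratios there, −0.23 in U266 and −0.24 in K562. PAF1, of the elongation complex that bears its name, was the highest in U266 at 0.19 and stood at 0.04 in K562. HEXIM1, which holds the elongation kinase P-TEFb inactive, was the highest of the 18 in K562 at 0.38, and stood at −0.15 in U266. Among the 11 measured tail-binding and termination genes, ZC3H4, which restricts non-coding transcription, was the lowest in K562 at −0.38 and stood at −0.03 in U266, where RPRD2 and RPRD1B, which bind the polymerase tail, were the lowest at −0.18 and −0.14. DXO, a decapping exonuclease, was the highest in K562 at 0.26 and stood at 0.02 in U266.

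In the list of cap binding, nuclear decay and tail genes, PAN2, a deadenylase subunit, was the highest in K562 at 0.49 and stood at −0.14 in U266. ZCCHC8, a subunit of the nuclear exosome targeting complex, stood at 0.35 in U266 and 0.23 in K562. ZFC3H1, which links the exosome to polyadenylated nuclear RNA, stood at −0.24 in U266 and 0.09 in K562. ZC3H18, which joins the cap-binding complex to decay factors, stood at −0.08 in U266 and −0.25 in K562. In the histone 3′ end list, ZNF473, a protein of the U7 machinery that cuts histone messages, had 888.9 with atovaquone and 584.6 with vehicle in U266, a log2 ratio of 0.61. In K562 it had 992.0 with atovaquone and 967.8 with vehicle, a log2 ratio of 0.04. CASP8AP2, a protein of the histone locus body, stood at 0.11 in U266 and −0.04 in K562, and LSM10, a U7 particle subunit, at −0.08 and −0.05. Of the 10 other Integrator and partner genes, INTS6L, a paralogue of INTS6, was the lowest in both lines, at −0.16 in U266 and −0.20 in K562. INTS13 was the highest in U266 at 0.17, and PPP2CA, a PP2A catalytic subunit, stood at 0.04 in U266 and −0.16 in K562.

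The small nuclear RNA genes, most of whose transcripts Integrator cuts, had the highest median of the 7 lists in K562. That median was 0.31 over 10 measured genes in K562, and it was 0.15 over 8 in U266. RNU5A-1, a U5 gene of the spliceosome, had 2496 with atovaquone and 1526 with vehicle in K562, a log2 ratio of 0.71, and stood at 0.16 in U266. RNU5B-1, another U5 gene, stood at 0.63 in K562, with an intensity of 371 with vehicle, and was below the floor on both U266 arrays. RNU4-2, a U4 gene, stood at 0.61 in U266 and 0.40 in K562, with 472 and 358 with vehicle. These vehicle intensities lie close above the floor, which limits what the ratios can show. RNU11, of the minor spliceosome, went the other way in K562, with 406.4 with atovaquone and 632.6 with vehicle, a log2 ratio of −0.63, and stood at 0.13 in U266. These probe sets cover short, stable RNAs with many related copies, so the values are uncertain, and RNU1-1 has no value because its probe sets are shared.

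The arrays carried the marker genes of the labelled lines. With vehicle, all 9 plasma cell markers were higher in U266 than in K562, 6 of them measured with log2 differences of 1.71 to 3.54 and 3 with bounds of at least 10.0-fold. Of the 11 erythroid and megakaryocytic markers, 8 had a value and all 8 were higher in K562. Another list held 8 T cell, fibroblast and epithelial genes, 4 of them measured on both vehicle arrays. Of those 4, 3 were higher in K562, namely KRT18, KRT8 and, by 1.19-fold only, COL1A1, and CD3E was 1.29-fold higher in U266. EPCAM, under the floor in U266, was at least 5.87-fold higher in K562. The log2 ratios of the plasma cell list in U266 ran from −0.24 to 0.28 around a median of 0.06, and those of the erythroid list in K562 from −0.25 to 0.56, with ALAS2 the highest, around a median of 0.05. Their part in the members' ratios was not tested. Spearman's rank correlation of atovaquone with vehicle was 0.989 for U266 and 0.990 for K562.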

How the data were processed

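RNA of U266 or K562 cells was measured on 4 Affymetrix Human Gene ST arrays, with biotin as the label. The values are the authors' deposited probe set intensity on a linear scale. How the authors corrected background, normalized and summarised probes is not stated in the labels or headers. The number of arrays, 1 per group, limits the precision.

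The arrays held 33252 probe sets, and the annotation named 21214, of which 1754 carried more than 1 symbol. Only the 19460 with a single symbol were used, and a gene with several probe sets took the brightest by mean log2 intensity. The floor on each array was the 40th percentile of listed probe sets. A gene at or above it on both arrays counted as measured, and all 34 members were so on all 4 arrays. Centring log2 ratios on their median took away −0.0096 in U266, −0.0048 in K562 and −0.02 between vehicle arrays. Where 1 array of a pair lay under the floor, the fold is given as a lower bound.

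The members and lists were chosen with earlier results of these data known. Named genes were all members and, from each pathway list, genes at least 1.5-fold different and otherwise up to 2 per list and line by size of ratio; SNORD50B and INTS11 fall outside this rule. The steps were run on simulated arrays in which known changes, larger than the 1.5-fold limit and without noise, were set into genes well above the floor. Recovery of those changes was thus built in, and it checks the code only. Settings tried were 2 other floors, no floor, quantile normalization, no centring and the mean of all probe sets. Python 3.11.15, numpy 2.4.6 and pandas 2.3.3 were used. RefSeq promoter windows were searched on both strands over the 250 bases before the start.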

Additional observations from a re-analysis of the deposited data

Results flagged for a closer look

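WDR33 had log2 ratios of atovaquone to vehicle of 0.24 in U266 and −0.18 in K562, opposite in direction and each larger than the SD between probe sets of the same gene. The K562 ratio minus the U266 ratio was −0.43. This difference was not tested, since each line has 1 array per group, and dose and time differ between the lines.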

How the results depend on the processing

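PCF11 and PPP1R10 stayed lower with atovaquone in both lines under all 6 planned settings. PCF11 lay between −0.56 and −0.54 in U266 and between −1.30 and −1.27 in K562. PPP1R10 lay between −0.37 and −0.35 in U266 and between −1.51 and −1.49 in K562. Neither gene fell under any floor, and each has 1 distinct value per array. Changes of floor, centring or probe set choice could thus only shift their ratios slightly, so this stability gives no support. The counts of members at 1.5-fold were the same under all 6. With the floor at the 60th percentile, however, only 29 members in U266 and 32 in K562 were still measured, in place of 34. With the limit at 1.2-fold, added after seeing the data, the lower count was 3 in U266 and 7 in K562 and the higher count 2 in K562. With the floor at the 60th percentile, 1 member in place of 2 was at least 2-fold lower in U266 than in K562 with vehicle, because CPSF1 fell under the floor in U266. Counts over all genes moved more. At 1.5-fold the 92 higher and 10 lower in U266 became 210 and 106 with no floor, 130 and 36 at the 20th percentile and 40 and 4 at the 60th. The 153 higher and 75 lower in K562 became 359 and 190, 235 and 82, and 68 and 44. Signal over the floor limits what dim members can show, and CLP1 was under it in both lines at the 60th percentile. No paired analysis was possible because each group has 1 array.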
